A study of Mus musculus with 4 samples.

Results

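The interferon-inducible GTPases described here are 10 mouse genes, namely the guanylate-binding protein (GBP) genes Gbp2, Gbp3, Gbp5 and Gbp7 and the immunity-related GTPase (IRG) genes Irgm1, Irgm2, Igtp, Iigp1, Ifi47 and Tgtp1. They were chosen by symbol, and all 10 were found among the 16375 genes listed in the expression table. The RNA came from bone marrow-derived macrophages (BMDMs), which are bone marrow cells cultured with the growth factor M-CSF until they differentiate. WT macrophages and macrophages from lncLy6c-deficient mice (LNCKO, a CRISPR-Cas9 deletion of this long noncoding RNA on the C57BL/6J background) were each kept without butyrate or with 500 µM of this bacterial fatty acid for 24 h. This gave 4 groups with 1 library each, called WT control, LNCKO control, WT butyrate and LNCKO butyrate here, so no difference could be checked against replicates and p-values were not computed. No interferon treatment is named for any group, and the number of mice behind each culture is not given in the sources used here. The methods give an age of 4 to 6 weeks for the C57BL/6 mice obtained, and no separate age for the mice behind these cultures.

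GBP and IRG proteins are GTPases of cell-autonomous immunity. Interferon gamma and type I interferons switch on their genes, in part through transcription factors of the IRF family, and the proteins then gather on vacuoles that hold parasites or bacteria. Within the IRG family, the regulatory IRGM proteins (Irgm1, Irgm2 and Igtp, which is also called Irgm3) sit on the cell's own membranes and keep the effector GKS proteins (Iigp1, Ifi47 and Tgtp1, also called Irga6, Irgd and Irgb6) inactive there. In macrophages, GBP proteins also help to release bacterial ligands to inflammasomes.

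On chromosome 3 of GRCm38, Gbp5, Gbp7, Gbp3 and Gbp2 lie in this order on the + strand, between 142493978 and 142638008. On chromosome 11, Irgm1 (48861968 to 48871683) and Tgtp1 (48985327 to 48994172) are on the - strand, and Ifi47 (49076587 to 49096974), Igtp (58199556 to 58207591) and Irgm2 (58199618 to 58222782) are on the + strand. Iigp1 is on chromosome 18.

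Most promoters of these genes hold letters that are known as targets of interferon signalling, and the stretches around them are shown because the genes share them. A GAS motif (gamma-activated sequence) was searched as TTCNNNGAA, which reads the same on both strands. An ISRE motif (interferon-stimulated response element), the letters bound by IRF proteins, was searched as GAAANNGAAA on both strands. In the RefSeq promoter table of build GRCm38.p6 (250 bases before to 50 bases after each start site, 300 in all), 9 of the 10 genes, all but Iigp1, are described. ISRE letters were in 8 of these 9 and GAS letters in 5 of them (Gbp5, Gbp7, Irgm2, Igtp and Tgtp1), against 3.44% and 8.30% of all 32851 promoters in the table. Neither was found in the window of Ifi47, which says only that these letters are not in those bases.

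In Igtp, Irgm2 and Tgtp1, the GAS letters are followed after 2 bases by the ISRE letters, an arrangement that was noticed after the sequences had been seen. The joint pattern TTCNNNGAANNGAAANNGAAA was in 5 of the 32851 promoters, those of Igtp, Irgm2, Tgtp1, Tgtp2 and Gm12185, the last of which overlaps Tgtp1. The windows lie at chr11:58199499-58199543 on the + strand (Igtp), chr11:58214890-58214934 on the + strand (Irgm2) and chr11:48992302-48992346 on the - strand (Tgtp1), and each is printed 5′ to 3′ on the strand of its gene with the motif letters in capitals.
Igtp: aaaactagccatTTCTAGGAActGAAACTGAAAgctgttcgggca
Irgm2: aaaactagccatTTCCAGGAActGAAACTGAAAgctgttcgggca
Tgtp1: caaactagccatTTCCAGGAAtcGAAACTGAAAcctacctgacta
The windows of Irgm2 and Igtp are the same in 44 of 45 bases and differ by C16T, counted from the first base shown, within the variable letters of the GAS motif. Tgtp1 is the same as Irgm2 in 34 of the 45 bases and as Igtp in 33.

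Without the joint pattern, ISRE letters are in Gbp2, Gbp3, Gbp5, Gbp7 and Irgm1, as single or overlapping copies. They are shown for Gbp2 (chr3:142620592-142620625, + strand), Gbp3 (chr3:142559987-142560026, + strand), Gbp5 (chr3:142496757-142496790, + strand), Gbp7 (chr3:142530271-142530304, + strand) and Irgm1 (chr11:48871423-48871462, - strand), so that they can be set beside the joint pattern. Gbp2b (chr3:142594698-142594731, + strand), a neighbour of Gbp2, is added because its values are described further on. In the windows of Gbp2, Gbp3, Gbp5, Gbp7 and Gbp2b the ISRE is on the opposite strand and therefore reads as its reverse complement.
Gbp2: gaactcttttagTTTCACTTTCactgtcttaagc
Gbp3: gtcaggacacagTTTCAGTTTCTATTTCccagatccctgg
Gbp5: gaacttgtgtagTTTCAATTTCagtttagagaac
Gbp7: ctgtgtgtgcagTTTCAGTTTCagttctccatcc
Irgm1: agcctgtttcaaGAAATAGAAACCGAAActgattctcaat
Gbp2b: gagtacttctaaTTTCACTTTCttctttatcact
Gbp3 and Irgm1 each hold overlapping copies of the ISRE letters, a second start site of Gbp3 in the table has neither motif, and Gbp5 and Gbp7 each have 2 GAS matches outside the stretch shown. Counted from the start site as 0, the ISRE letters begin at -59 in Gbp2, -45 in Gbp3, -165 in Gbp5, -53 in Gbp7 and -30 in Irgm1. The match in Gbp2b begins at -137. A match is a description of the sequence and no measurement of binding was analysed here.

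**Figure D1:**
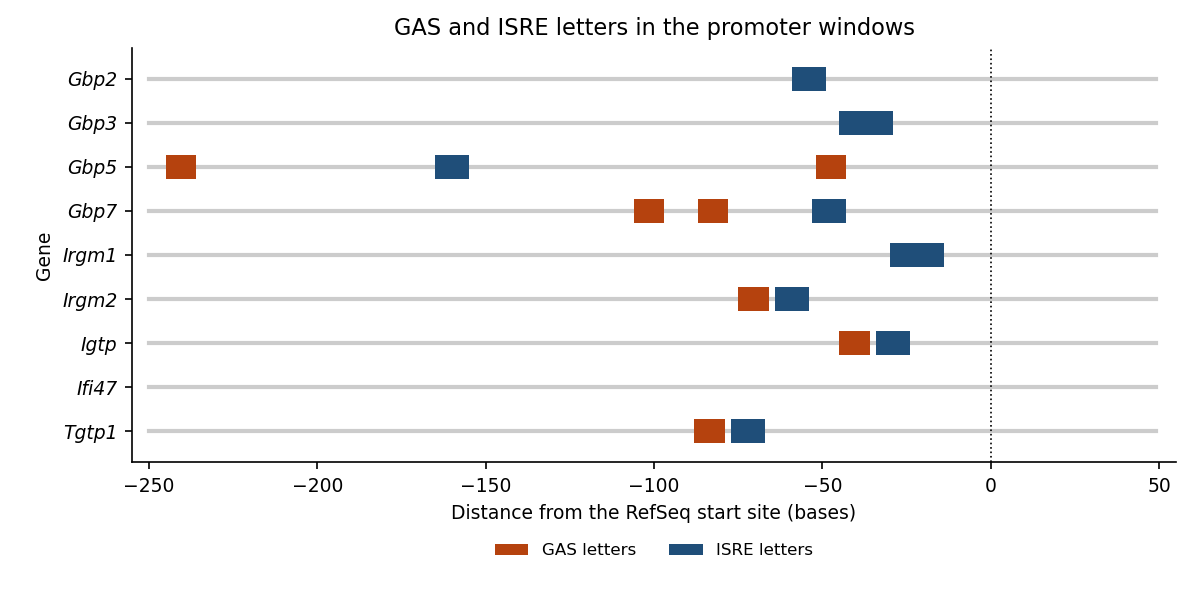
Positions of the GAS and ISRE letters (coloured blocks) in the promoter windows of 9 GTPase genes, with the distance from the RefSeq start site in bases on the x axis and 1 gene per row. In Igtp, Irgm2 and Tgtp1 a GAS block stands 2 bases before an ISRE block, and Ifi47 has neither.

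The libraries held 53363944 to 65521713 fragments, as recovered from the values. Of the 10 macrophage identity genes, 9 had a mean of at least 1 FPKM, with Csf1r, Cd68 and Fcgr1 at 38.3 or more in every library and Cd163 at 0.10 or less. They were summed at 2583 FPKM in WT and 2211 in LNCKO without butyrate and at 3514 in WT and 1488 in LNCKO with it, mostly through Lyz2. The cultures also held RNA of other cell types. B cell markers (5 of 7 at a mean of at least 1 FPKM) were summed at 164 FPKM in WT butyrate and at 209 to 216 in the other libraries, with Cd79a at 51.3 to 69.3. Neutrophil markers (10 of 10) were summed at 3141 FPKM in WT butyrate and at 2226 to 2656 in the others, with 7 of the 10 higher in WT butyrate than in WT control (5 with libraries scaled on macrophage identity genes). Their largest change was that of Mmp8, at 135 FPKM in WT butyrate against 60.6 to 60.9, whereas Camp (36.7 against 44.2 to 50.3) and Ngp (319 against 332 to 407) were lowest in that library. Erythroid genes (4 of 7, all 4 hemoglobins, with Alas2 and Klf1 at or near 0) were summed at 7.99 and 9.31 FPKM in WT and at 32.0 and 87.6 in LNCKO. Basophil and mast cell markers (4 of 7) were summed at 35.2 FPKM in WT butyrate, 46.6 in WT control and 71.3 to 72.2 in LNCKO. T and NK cell markers (3 of 12, with the 3 CD3 chain genes below 0.30 FPKM) stayed between 15.0 and 20.7 FPKM in sum, and dendritic cell markers (3 of 9) between 16.0 and 18.9. Stromal markers (2 of 7) were summed at 9.23 to 9.96 FPKM in WT and at 2.72 to 5.52 in LNCKO. The part of these cells in any result was not tested, and in bulk RNA fewer cells of a type and less RNA per cell cannot be told apart. The 4 Y-linked genes examined had 16 to 85 fragments in the WT libraries and 2051 to 7764 in those of LNCKO, which means that genotype and sex cannot be told apart.

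All 10 GTPase genes were expressed in every library, with 6136 to 31534 fragments per gene and library. Values are given as deposited, in FPKM (fragments per kilobase of gene and 1000000 fragments), where the kilobase is that of the whole gene with its introns, so these values serve to compare libraries and not genes. With the same fragments set over the length of the exons, the order of the 10 genes was the same in all 4 libraries. That length joins all annotated exons of a gene, whichever transcripts the cells make, so the comparison between genes is approximate. Tgtp1 also shares 223 exon bases with Gm12185 and has a near-identical neighbour, Tgtp2. How fragments that fit more than 1 gene were counted was not examined, which also limits the rank of Tgtp1. Ifi47 was the highest at 165 to 188 exon-length FPKM, followed by Igtp at 105 to 125 and Gbp2 at 102 to 115. Irgm1 (74.9 to 83.2), Irgm2 (65.8 to 73.1), Gbp3 (48.7 to 55.8), Tgtp1 (46.6 to 54.2), Gbp7 (41.5 to 45.2) and Iigp1 (25.3 to 36.1) came next, and Gbp5 was the lowest at 17.3 to 19.0 exon-length FPKM. The ranges over the 4 libraries overlapped for the neighbours Igtp and Gbp2 and for Gbp3 and Tgtp1, and for no other neighbours in this order.

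The genes stayed within narrow limits across the libraries. The highest library was 1.09-fold (Gbp7) to 1.43-fold (Iigp1) above the lowest, with a median of 1.135-fold over the 10 genes against 1.15-fold over the 6809 genes tested, which are those with a mean of at least 1 FPKM. Of those genes, 7.50% had a wider range than Iigp1. The highest library was WT butyrate for 7 of the 10 genes. The lowest was LNCKO control for 5 of them, WT control for 3 and WT butyrate for 2. The share of all genes with the same highest or lowest library was not computed, and these counts depend on the scaling. With libraries scaled on macrophage identity genes, 3 of the 10 were higher with butyrate in WT. All 10 were then higher in LNCKO than in WT under butyrate.

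**Figure D2:**
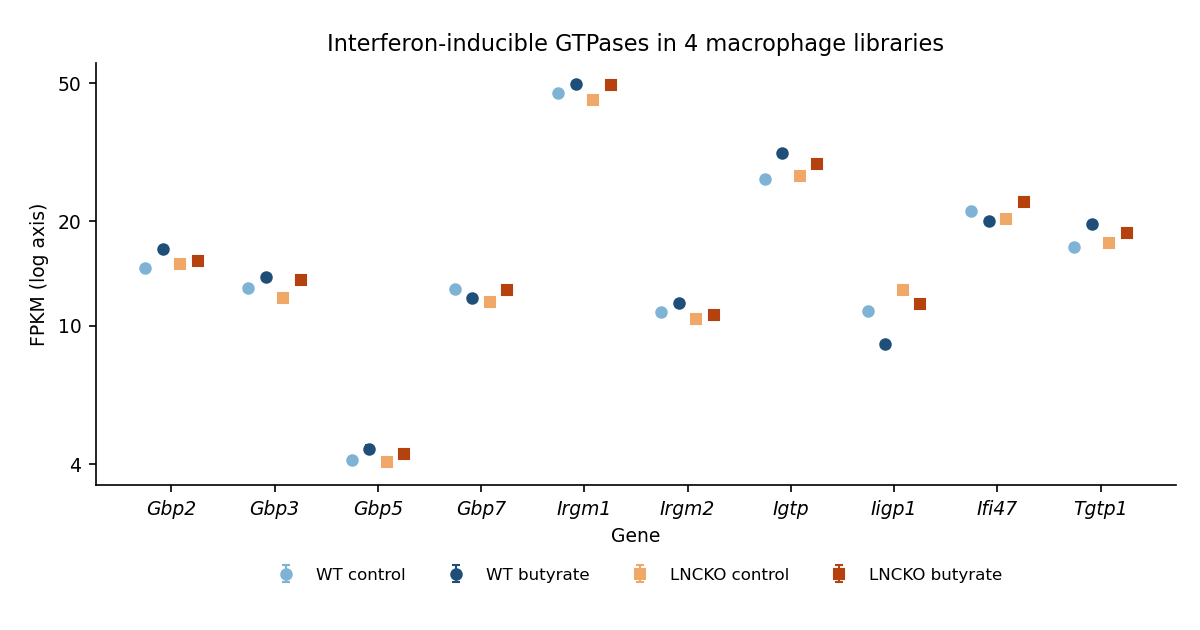
FPKM of the 10 GTPase genes (log axis) in each of the 4 libraries, 1 point per library, where the bars are exact 95% counting intervals that are mostly smaller than the points. Irgm1 lies between 44.8 and 49.7 FPKM and Gbp5 between 4.05 and 4.44, and Iigp1 has the widest spread, from 8.87 to 12.7.

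The regulatory IRGM genes were slightly higher with butyrate in both genotypes, except that 2 of the 3 were lower in WT once libraries were scaled on macrophage identity genes. Irgm1, which holds effector IRG proteins off lysosomes and other membranes of the cell and is linked to resistance to mycobacteria, was at 46.9 FPKM in WT control against 49.7 in WT butyrate, and 44.8 in LNCKO control against 49.5 in LNCKO butyrate. Its butyrate libraries were both above its control libraries. Irgm2, a protein of the Golgi membranes, was at 10.9, 11.7, 10.5 and 10.7 FPKM in the same order, so that WT butyrate stood highest and LNCKO butyrate was below WT control. Igtp, a protein of lipid droplets and the endoplasmic reticulum, was at 26.4, 31.4, 27.0 and 29.3 FPKM, with both butyrate libraries above both controls. The ratio of butyrate to control for Igtp was 1.19 in WT (95% counting interval 1.16 to 1.22) and 1.08 in LNCKO (1.06 to 1.11). On the log2(FPKM + 1) scale, which is used for all changes here and understates those of low genes, the median over the 3 IRGM genes was 0.08 in WT and 0.11 in LNCKO. With that scaling, Irgm1 and Irgm2 stood at -0.09 and -0.08 in WT, whereas Igtp was at 0.07. Igtp and Irgm2 share 162 bases of exon on the same strand, since an annotated Irgm2 transcript starts close to the start of Igtp.

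The effector GKS genes did not share a direction with butyrate. Iigp1, a GTPase that coats the vacuole of the parasite Toxoplasma, was at 11.02 FPKM in WT control against 8.87 in WT butyrate, and 12.7 in LNCKO control against 11.5 in LNCKO butyrate. It was lower with butyrate in both genotypes and higher in LNCKO than in WT under both conditions. The ratio of butyrate to control was 0.805 (95% counting interval 0.782 to 0.828) in WT and 0.910 (0.887 to 0.934) in LNCKO. Tgtp1, which also coats such vacuoles, was at 16.9, 19.6, 17.4 and 18.5 FPKM in the same order of libraries, with both butyrate libraries above both controls. Its ratio was 1.16 in WT and 1.06 in LNCKO. Tgtp1 has a near-identical neighbour, Tgtp2, and the fragments of both genes summed were 1.04-fold and 1.07-fold higher with butyrate in WT and LNCKO. Tgtp1 held 30.5% of that sum in WT butyrate and 27.1% to 27.6% in the other libraries. Since Tgtp1 is the smaller part, its change weighs little in the ratio of the sum. Tgtp2 alone had ratios of 0.988 in WT and 1.08 in LNCKO. Ifi47, whose product belongs to the same effector class, was at 21.4 FPKM in WT control against 20.01 in WT butyrate, and 20.3 in LNCKO control against 22.7 in LNCKO butyrate. Its ratio was 0.936 (0.919 to 0.952) in WT and 1.12 (1.10 to 1.14) in LNCKO, and 111 of its exon bases are shared with the olfactory receptor gene Olfr56.

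Of the GBP genes, 3 of 4 in WT and 4 of 4 in LNCKO were higher with butyrate, where 36.9% and 42.2% of all genes tested were. With libraries scaled on macrophage identity genes, 3 of the 4 in WT (Gbp3, Gbp5 and Gbp7) were lower and Gbp2 was at 0.00. Gbp2, a lipid-anchored GBP that is recruited to pathogen vacuoles, was at 14.7 FPKM in WT control against 16.7 in WT butyrate, and 15.0 in LNCKO control against 15.3 in LNCKO butyrate. Only its WT butyrate library stood apart, with a ratio of 1.133 (95% counting interval 1.11 to 1.16) in WT, while the interval for LNCKO, 0.999 to 1.04, holds 1. Gbp3 was at 12.9, 13.8, 12.1 and 13.6 FPKM, with both butyrate libraries above both controls. Gbp5, which is linked to inflammasome assembly, was at 4.10, 4.44, 4.05 and 4.28 FPKM with the same order. Gbp7, a GBP of the same chromosome 3 cluster, went against these 3 in WT, at 12.8 FPKM in WT control and 12.03 in WT butyrate, and lay with them in LNCKO, at 11.7 and 12.7. A pseudogene, Gm43802, shares 637 exon bases with Gbp7 and is not analysed here.

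The butyrate changes of the 10 genes were small in size, with medians above those of all genes in both genotypes. In WT, 7 of 10 were higher with butyrate, where 36.9% of all genes tested were, and 0 of 10 passed 2-fold, as did 0.338% of all genes. In LNCKO, 9 of 10 were higher, where 42.2% of all genes were, and 0 of 10 passed 2-fold, as did 0.176% of all genes. With libraries scaled on macrophage identity genes, the count was 3 of 10 in WT, with the median of the 10 genes at -0.07, and again 9 of 10 in LNCKO, and this scaling also moved the median of all genes in WT from -0.04 to -0.17. The median change of the 10 genes was 0.09 in WT, with a range from -0.28 to 0.24, and 0.10 in LNCKO, with a range from -0.13 to 0.16, against medians over all genes of -0.04 and -0.01. The middle of all genes, from percentile 5 to percentile 95, ran from -0.27 to 0.25 in WT and from -0.15 to 0.15 in LNCKO. Iigp1 lay below it in WT, and Gbp3 and Ifi47 lay just above it in LNCKO. The 95% counting interval of the ratio excluded 1 for 10 of 10 genes in WT and for 9 of 10 in LNCKO. The share of all genes with such an interval was not computed. With 6136 to 31534 fragments per gene and library, small changes are enough to exclude 1. These intervals cover counting error only, with a half-width of 1.60% to 3.50% of the ratio, and the spread between cultures is unknown.

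Between the genotypes the 10 genes were close as well. Without butyrate, 4 of 10 genes were higher in LNCKO than in WT, where 56.7% of all genes were, and under butyrate 3 of 10 were, where 64.2% of all genes were. The second count was 5 of 10 with FPKM rescaled to an equal sum per library and 10 of 10 with libraries scaled on macrophage identity genes, a scaling that moved the median of all genes in this comparison from 0.04 to 0.19. None of the 10 passed 2-fold in these 2 comparisons, where 0.279% and 0.47% of all genes did. The median difference was -0.03 in both, with ranges from -0.12 to 0.19 and from -0.11 to 0.34. Iigp1 stood at the top of both ranges and lay above percentile 95 of all genes in each, with LNCKO at 1.15 times WT without butyrate (95% counting interval 1.12 to 1.18) and at 1.30 times WT under butyrate (1.27 to 1.34). Its value was above 0 in these comparisons under every scaling tried. Ifi47 was at 1.14 times WT under butyrate (1.12 to 1.16) and at 0.9502 times WT without it (0.933 to 0.968).

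**Figure D3:**
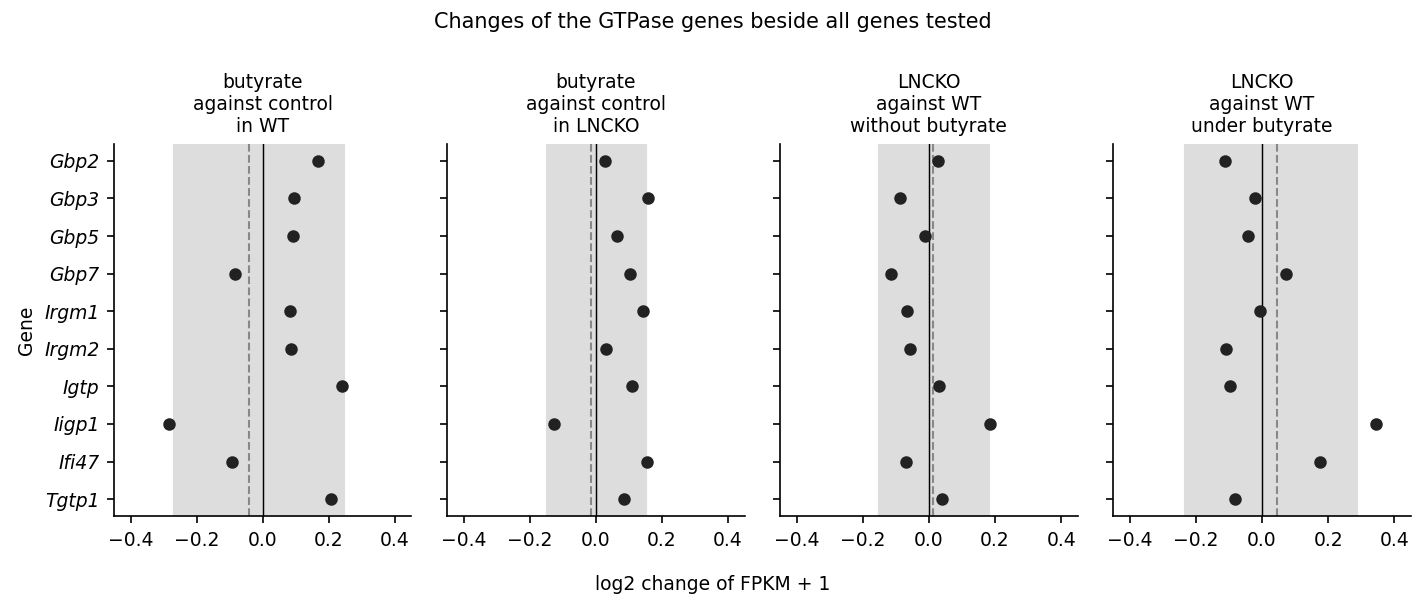
Changes of log2(FPKM + 1) for the 10 GTPase genes (1 point per gene, 1 library against 1) in 4 comparisons. The grey band spans percentiles 5 to 95 of the 6809 genes tested, the dashed line is their median and the solid line is 0. Iigp1 lies outside the band on the low side with butyrate in WT and on the high side in both genotype comparisons.

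The butyrate change in WT minus that in LNCKO gives 1 value per gene. It was above 0 for 5 of 10 genes, where 41.4% of all genes tested were, and for 0 of 10 with libraries scaled on macrophage identity genes. None of the 10 reached a 2-fold difference, as did 0.338% of all genes. The values ran from -0.25 for Ifi47 to 0.14 for Gbp2, with a median of -0.02, and all 10 lay within percentiles 5 to 95 of all genes, -0.29 to 0.27. Gbp2, Igtp and Tgtp1 were on the side of a larger change in WT, at 0.14, 0.13 and 0.12. Gbp7, Iigp1 and Ifi47 were at -0.19, -0.16 and -0.25.

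Of the other genes of both families and Gvin1, an interferon-inducible GTPase of neither, 14 were listed and 10 passed the filter of 1 FPKM. With butyrate, 6 of these 10 were higher in WT (4 with FPKM rescaled and 0 with libraries scaled on macrophage identity genes) and 7 of 10 in LNCKO, with medians of 0.03 and 0.04. Of all genes tested, 36.9% were higher with butyrate in WT and 42.2% in LNCKO. The shares higher in LNCKO than in WT were 56.7% without butyrate and 64.2% under it. By position, the 3 genes on chromosome 18, Iigp1, Gm4951 and F830016B08Rik, were each lower with butyrate in both genotypes and higher in LNCKO under both conditions, and this was so under all 3 scalings tried. F830016B08Rik was below the filter, with 274 to 410 fragments, and its 95% counting intervals hold 1 for the ratio of butyrate to control in LNCKO (0.827 to 1.11) and for that of LNCKO to WT without butyrate (0.953 to 1.29). Gm4951 was at 1.53 FPKM in WT control against 1.28 in WT butyrate, and 1.63 in LNCKO control against 1.47 in LNCKO butyrate, and F830016B08Rik was at 0.611, 0.480, 0.679 and 0.649 FPKM. Both have WT butyrate as their lowest and LNCKO control as their highest library, as Iigp1 does. On chromosome 11, 6 of 8 genes were higher with butyrate in WT and 8 of 8 in LNCKO, where 36.9% and 42.2% of all genes tested were. Their changes ran from -0.09 to 0.24 in WT and from 0.03 to 0.16 in LNCKO. The count in WT was 4 of 8 with FPKM rescaled and 2 of 8 with the macrophage scaling. It was 7 of 8 with libraries scaled by the median ratio over genes. Tgtp2 was at 57.2, 56.5, 57.4 and 61.9 FPKM. Irgq, a distant IRG relative, was at 4.31 FPKM in WT control against 3.47 in WT butyrate, and 4.53 in LNCKO control against 4.44 in LNCKO butyrate, so that only WT butyrate stood apart.

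Gbp2b, which lies between Gbp3 and Gbp2 on chromosome 3, had the widest range over the libraries of the 24 genes listed, Gvin1 included. It had 256 fragments in WT control against 2569 in WT butyrate, and 413 in LNCKO control against 403 in LNCKO butyrate, which is 0.187, 1.78, 0.318 and 0.253 FPKM. WT butyrate was the only library above 1 FPKM, and its mean over the 4 libraries, 0.635 FPKM, left it out of the genes tested. The ratio of butyrate to control was 9.56 in WT (95% counting interval 8.40 to 10.9) and 0.795 in LNCKO (0.691 to 0.914). Gbp2 next to it, whose own ISRE stretch is printed above beside that of Gbp2b, had 1.133 and 1.02 for the same ratios. The gene was named after its values had been seen, and its higher level rests on the WT butyrate library alone, which also had the lowest sum of B cell markers and the highest sum of neutrophil markers. Whether these marker levels, of which 3 of the 10 for neutrophils were lower than in WT control, have a part in the value was not tested. Gbp8 on chromosome 5 was at 0.141 FPKM in WT control against 0.292 in WT butyrate, and 0.210 in LNCKO control against 0.197 in LNCKO butyrate. Its mean was below the filter as well. WT butyrate was its highest library, as it was for Gbp6 and Gbp10 of the same chromosome but not for Gbp4 and Gbp9.

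**Figure D4:**
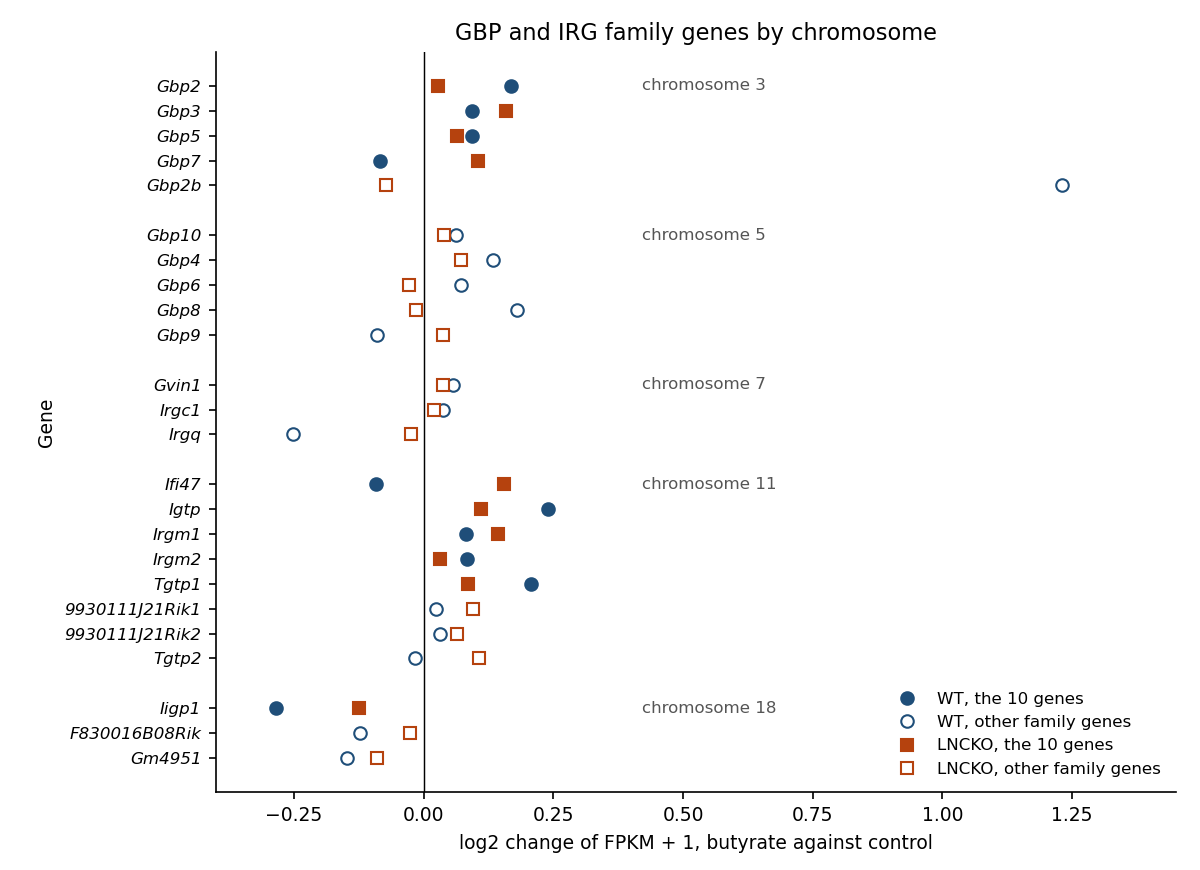
Butyrate changes of log2(FPKM + 1) in WT (circles) and LNCKO (squares) for 24 listed genes, ordered by chromosome. They are genes of the GBP and IRG families and Gvin1, with the 10 GTPase genes filled and the others open. Gbp2b in WT stands apart at 1.23, and the 3 genes on chromosome 18 are the only chromosome group with every value below 0.

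Upstream of the GTPases, the ligands were low, and type I signalling genes differed in which library was highest. Ifng, the interferon gamma gene, had 7 and 0 fragments in WT without and with butyrate and 18 and 4 in LNCKO. Ifnb1, the interferon beta gene, was at 3.59, 4.53, 4.00 and 6.61 FPKM from 152 to 325 fragments, highest in LNCKO butyrate. Stat2 and Irf9, transcription factors of type I signalling, had changes of 0.31 each with butyrate in WT and of 0.13 and 0.06 in LNCKO. Irf1, an inducer of GBP genes, was at 24.2, 27.0, 27.8 and 26.6 FPKM, so that WT control was its lowest library. Of all genes tested, 36.9% were higher with butyrate in WT and 42.2% in LNCKO. Among interferon gamma signalling genes, 5 of 8 tested were higher with butyrate in each genotype (1 in WT and 4 in LNCKO with the macrophage scaling), with medians of 0.06 and 0.01. Jak2, a kinase that acts at the interferon gamma receptor, was the lowest of them in WT at -0.29. Socs1, an inhibitor of the pathway, was the highest in LNCKO at 0.17. In the type I signalling list, 6 of 10 were higher in WT (3 of 10 with the macrophage scaling) and 7 of 10 in LNCKO, with medians of 0.05 in both. The butyrate change in WT minus that in LNCKO was above 0 for 3 of these 10 and below 0 for 7, where 41.4% of all genes tested were above 0.

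Other interferon target genes had higher median butyrate changes than the GTPases in WT, 0.19 for interferon gamma targets and 0.15 for type I targets against 0.09. With the macrophage scaling these medians were 0.02, -0.02 and -0.07, and the median of all genes went from -0.04 to -0.17. This scaling shifts all genes of a library by the same factor, so it could change the order of the lists little. Of all genes tested, 36.9% were higher with butyrate in WT and 42.2% in LNCKO, and these shares were not computed for the macrophage scaling. Of the interferon gamma targets, 12 of 15 tested were higher with butyrate in WT (8 of 15 with the macrophage scaling) and 10 of 15 in LNCKO (median 0.03). The proteasome subunit gene Psmb9 was at 28.4 FPKM in WT control against 35.8 in WT butyrate, and 30.1 in LNCKO control against 30.9 in LNCKO butyrate, and the peptide transporter gene Tap2 at 15.1, 18.7, 15.1 and 15.4. Both were highest in WT butyrate, with the other libraries close together. Of the type I targets, 14 of 18 were higher with butyrate in WT (8 of 18 with the macrophage scaling) and 17 of 18 in LNCKO (median 0.14). Cmpk2, a nucleotide kinase gene next to the antiviral gene Rsad2, had the largest change of this list in WT, 0.57, and Ifit1, an antiviral RNA-binding protein gene, had the largest in LNCKO, 0.32. Without butyrate, 2 of 18 type I targets were higher in LNCKO than in WT (median -0.07), where 56.7% of all genes were. This count was 4 of 18 with FPKM rescaled and 5 of 18 with the macrophage scaling. Under butyrate, 6 of 18 were higher in LNCKO, where 64.2% of all genes were. That count was 8 of 18 with FPKM rescaled and 15 of 18 with the macrophage scaling. Mx1 and Mx2 were not analysed here. Among autophagy and inflammasome genes that place or work with the GTPases, such as Gabarap and Casp4, 3 of 11 tested were higher with butyrate in WT (median -0.11, and 0 of 11 with the macrophage scaling) and 6 of 11 in LNCKO (median 0.01). These lists stand as counts only, and the difference between any of them and the GTPases was not tested.

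**Figure D5:**
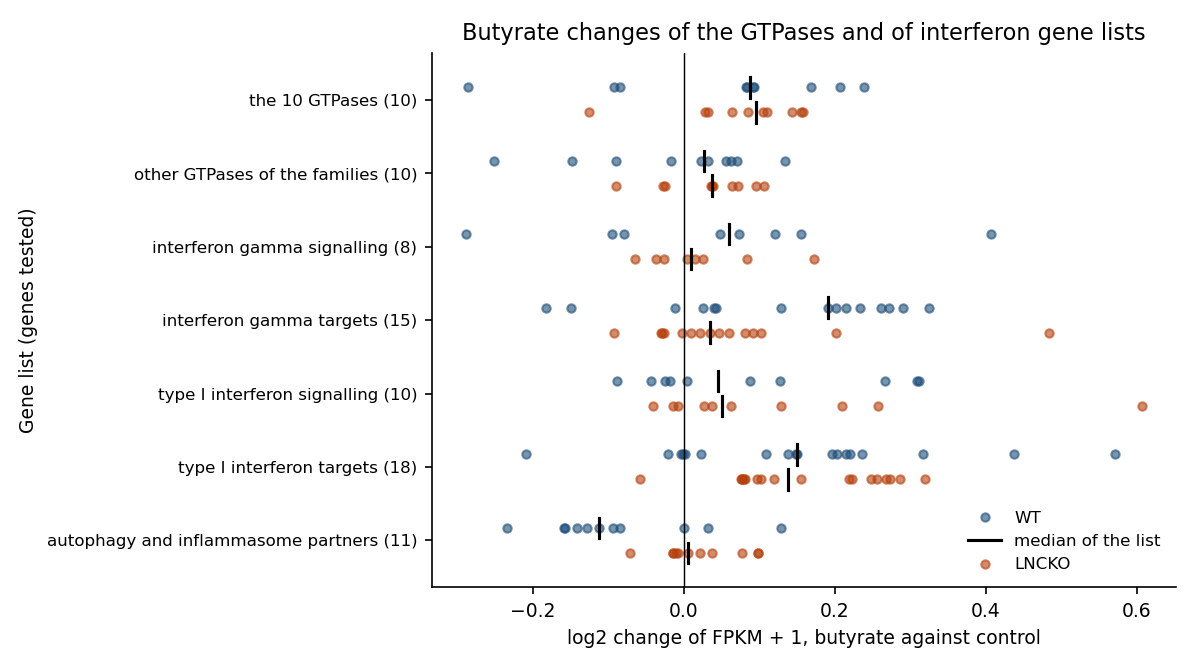
Butyrate changes of log2(FPKM + 1) in WT and LNCKO for the 10 GTPase genes and 6 lists of related genes, 1 point per gene tested, with a black bar at each list's median. The medians in WT are 0.09 for the GTPases, 0.19 for the interferon gamma targets and -0.11 for the autophagy and inflammasome partners.

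Among the 5 genes whose profile over the 4 libraries was most like the median profile of the 10 GTPases were Ly6e, Tpgs1, Micos13 and Anxa2. Likeness was the Euclidean distance between log2(FPKM + 1) values centred on each gene's mean, at most 0.027 (Anxa2) for these 5. Ly6e, an interferon-inducible surface protein gene, was at 720 FPKM in WT control against 751 in WT butyrate, and 698 in LNCKO control against 746 in LNCKO butyrate. The GTPase genes were themselves at a median distance of 0.081 from their own median profile, and 442 of 6799 other genes (6.50%) lay as near or nearer, so the profile is one that many genes share.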

How the data were processed

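The authors deposited FPKM values per gene and library and no counts. The submitters' processing notes name STAR 2.5.0c, Picard 1.126, bedtools 2.17.0, HTSeq 0.6.0 and DESeq2 3.0 with GRCm38 and mm10. The labels name other kits (RNeasy, TruSeq, Illumina) than the methods (TRIzol, MGISEQ-2000), and strand use is not given in the sources used here. Groups came from the library titles. The column names of both LNCKO libraries do not spell the genotype, and the targeted transcript was not analysed here.

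Genes were matched by Ensembl ID to GENCODE M21 (16342 of 16375), and library totals were recovered as the numbers that turn FPKM into whole fragments. Of the matched genes, 98.4% were whole within 0.01 in all 4 libraries on the genomic span and 6.88% on the exon length, and all 10 GTPase genes were whole. Intervals are exact, at 95%, and cover counting error only. No count test was run, since 1 library per group leaves no spread to estimate.

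Changes are log2 differences of FPKM + 1, a call is 2-fold, and genes with a mean of at least 1 FPKM were tested. The members and lists were chosen with earlier results of these data known. Named were all 10 members, per list the defining genes and at most 3 with the largest change, and the 5 nearest profiles. Some named items are not reported here. Other family genes were named after their values had been seen. Of 169 list genes, 165 were listed. Alternatives were a pseudocount of 0.1, filters of 5 FPKM or none, 3 scalings and a 1.5-fold call, and plain ratios were added after seeing the data. The steps were tested on simulated data. Software was pandas 2.3.3, matplotlib 3.10.9, scipy 1.17.1 and numpy 2.4.6 under Python 3.11.15.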

Additional observations from a re-analysis of the deposited data

Results flagged for a closer look

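Some genes had values of opposite direction in both genotypes or under both conditions, each from 1 library against 1, and the differences between them were not tested. With butyrate, Gbp7 was at -0.08 in WT and 0.10 in LNCKO, a difference of -0.19, and Ifi47 was at -0.09 and 0.16, a difference of -0.25. LNCKO against WT, Gbp2 was at 0.03 without butyrate and -0.11 under it, Igtp at 0.03 and -0.10, and Tgtp1 at 0.04 and -0.081. Gbp7 was at -0.12 without butyrate and 0.074 under it, and Ifi47 at -0.07 and 0.18. With libraries scaled on macrophage identity genes, every GTPase gene was higher in LNCKO than in WT under butyrate.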

How the results depend on the processing

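Of 400 values of single GTPase genes under the alternatives, all moved by less than 0.2 on the log2 scale, as did all 40 medians over the 10 genes. The sign changed in 19 of the 400, of which 17 came from scaling libraries on macrophage identity genes and 2 from rescaling FPKM to an equal sum of 1000000; the cause was not tested. The limit of 0.2 is wider than these medians, and some changed sign. With the macrophage scaling, the median for butyrate in WT went from 0.09 to -0.07 and that for LNCKO against WT under butyrate from -0.03 to 0.14, the latter also to 0.01 with FPKM rescaled, and the median difference of the butyrate changes went from -0.02 to 0.02 with libraries scaled by the median ratio over genes. Scaling on macrophage identity genes gave 3 genes higher with butyrate in WT, 10 higher in LNCKO under butyrate and 0 with a larger value in WT for the difference between the genotypes, and rescaling gave 5 higher in LNCKO under butyrate. No GTPase gene passed the call under any alternative.

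Counts of all genes past the call moved more, as higher and lower in the order butyrate in WT, butyrate in LNCKO, LNCKO against WT without and under butyrate, and the difference of the butyrate changes. They were 18 and 5, 7 and 5, 13 and 6, 15 and 17, and 15 and 8 as reported. With FPKM rescaled, which left 11021 genes tested, they were 91 and 64, 57 and 38, 57 and 71, 87 and 84, and 123 and 117. A 1.5-fold call gave 55 and 30, 20 and 9, 23 and 19, 52 and 50, and 54 and 45. A filter of 5 FPKM, which left 2544 genes, gave 9 and 3, 4 and 1, 5 and 0, 9 and 9, and 6 and 4. A pseudocount of 0.1 moved them to 29 and 12, to 13 higher, to 13 lower, to 28 and 29, and to 26 and 22, and no pseudocount to 31 and 18, 16 higher, 14 lower, 32 and 30, and 28 and 26. Scaling on macrophage identity genes gave 11 lower in LNCKO under butyrate and 13 lower for the difference.

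No paired analysis was possible because each group has 1 library, and all 4 library names carry the same number 2, and leaving out a library would empty its group. The counting error of a GTPase ratio was at most 3.50%, and the spread between cultures, which the libraries cannot show, limits every difference.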
